A study of Oryctolagus cuniculus with 6 samples.

Results

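The kinesin motor genes named KIF were examined in primary limbal stem cells (LSCs) cultured from explants of the rabbit limbus, with 3 fresh and 3 preconditioned RNA-seq libraries. All rows of the deposited table whose symbol was KIF followed by a number were taken, which gave 34 of 22190 genes. They were divided by number into 12 mitotic members (KIF2A, KIF2C, KIF4A, KIF11, KIF14, KIF15, KIF18A, KIF18B, KIF20A, KIF20B, KIF22 and KIF23) and 22 other members, most of which carry cargo. The members and the gene lists below were chosen with earlier results of these data known. Explants of the fresh group came from corneas that were not frozen. For the preconditioned group, rabbit corneas were kept for 7 days in liquid nitrogen in a freezing medium that contained 10 ng/mL of the cytokine IL-1β, and limbal pieces were plated after thawing. Freezing and IL-1β were given together, so the effect of one cannot be told apart from that of the other. The strain and age of the rabbits, and the animal behind each library, are not given in the sources used here, and the p values below measure the spread between libraries. The cells are an explant outgrowth rather than a sorted population.

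Kinesins are motor proteins that use ATP to walk along microtubules or to take their ends apart. Mitotic kinesins build the spindle, move and align chromosomes, and bring the central spindle and the contractile ring through cytokinesis, and most of their mRNAs accumulate as cells approach division. Transport kinesins carry vesicles, endosomes, mitochondria and ciliary cargo, and are also made by cells that do not divide. In the limbus, stem cells divide slowly and their transit amplifying progeny divide often.

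Libraries held 31952352 to 34327534 counts on genes, of which 48262 to 61786 fell on KIF genes. Expression is given as CPM, counts scaled to a common library size with a TMM correction for library composition. Preconditioned replicate 1 lay nearer to the fresh libraries than preconditioned replicates 2 and 3 did for the mitotic members other than KIF2A, and calls among the mitotic members and their partners are given with and without it. This library was singled out after these values were seen, so calls made without it are not independent support. The epithelial keratin KRT5 was at 7337 to 11740 CPM and the limbal transcription factor TP63 at 112 to 246 CPM over the 6 libraries. Keratin KRT15 was scarce at 0.988 to 9.71 CPM, and KRT3 was at 239 to 2655 CPM. The markers KRT14, KRT12 and ABCG2 had no row under these symbols and were not analysed here. In bulk RNA, fewer dividing cells and less of an mRNA in each cell cannot be told apart. By flow cytometry, the paper reported fewer preconditioned than fresh cells before DNA synthesis, and more in the later phases of the cell cycle. Whether those were the cultures that were sequenced is not stated.

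Most mitotic kinesins were lower after preconditioning, while the other kinesins lay on both sides of zero. Of the 12 mitotic members, 11 had lower mean CPM after preconditioning, their log2 fold changes running from −1.82 (KIF20A) to −0.86 (KIF18A, standard error, SE, 0.26), and KIF2A had 0.20. The median was −1.44 for the mitotic members, 0.21 for the 16 other members tested, and 0.01 for all 15029 tested genes. A gene was called when its p from the quasi-likelihood test of edgeR, after Benjamini-Hochberg adjustment, was 0.05 or less and the size of its log2 fold change was 1 or more. At these cutoffs 0 of the 12 mitotic members were called, and 1 of the 16 others, KIF21B, fell, against 1.20% of all tested genes that were called lower. No KIF gene was called higher, against 1.08% of all tested genes. The adjusted p values of the 11 lower mitotic members were 0.0504 to 0.161, and all 11 had an unadjusted p under 0.05, against 15.1% of all tested genes that were lower at that level. With the DESeq2 Wald test at the same cutoffs, 10 of the 12 mitotic members fell (all except KIF18A and KIF2A), against 4.17% of all genes with an adjusted p. DESeq2 also called KIF21B lower and KIF1A higher, where 3.62% of genes were called higher. In 10 of the 12 mitotic members all preconditioned libraries lay below all fresh libraries, against 18.8% of all tested genes. Among the other 16 members, 3 were separated in this way and 3 in the opposite direction, for which the share of all tested genes was 17.9%.

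**Figure D1:**
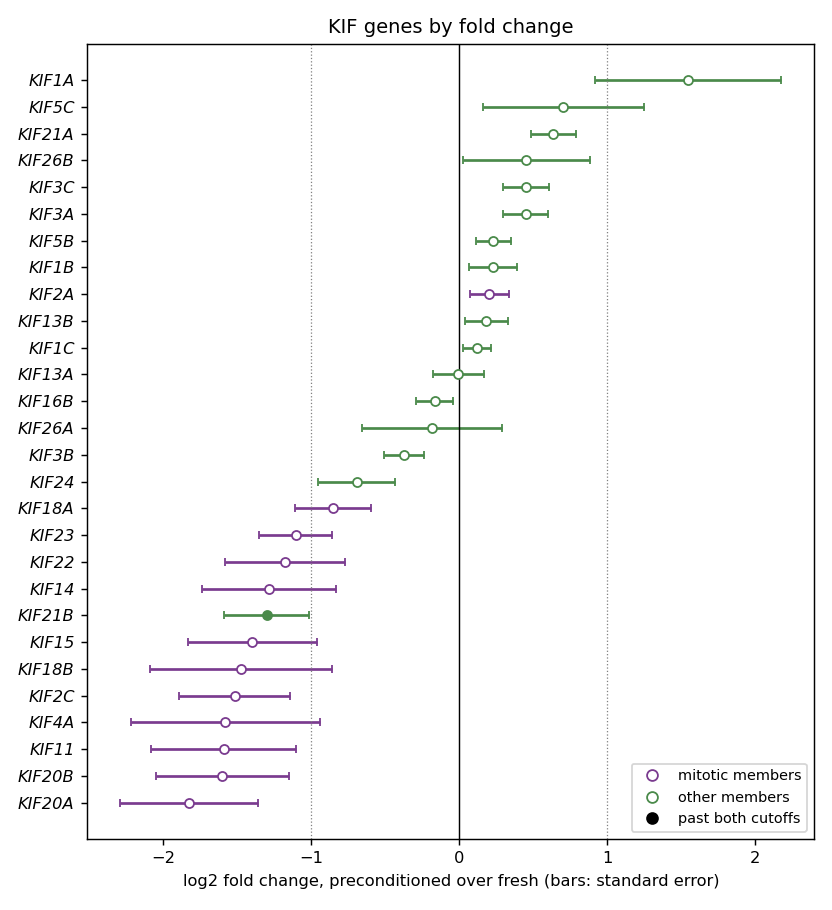
Log2 fold change of the 28 tested KIF genes, preconditioned over fresh, with standard errors from edgeR (3 libraries per group). Filled points passed both cutoffs, which KIF21B alone did. The mitotic members other than KIF2A lie between −1.82 and −0.86, and the other members spread around zero between −1.30 (KIF21B) and 1.55 (KIF1A).

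The motors of the central spindle and of cytokinesis are KIF20A, KIF23, KIF20B, KIF4A and KIF14. All 5 had lower preconditioned libraries without overlap, against 18.8% of all tested genes. KIF20A, which brings the chromosomal passenger complex to the central spindle, had 70.7, 55.9 and 51.2 CPM in the fresh libraries and 30.5, 10.2 and 9.38 CPM in preconditioned replicates 1, 2 and 3. The groups did not overlap, and its log2 fold change of −1.82 (SE 0.47, edgeR adjusted p = 0.0627) was the lowest of the family, a 3.55-fold lower mean. KIF23, the motor subunit of centralspindlin, had 66.6, 45.6 and 44.6 CPM in the fresh libraries and 28.1, 17.0 and 27.8 CPM in the preconditioned libraries. Its log2 fold change was smaller at −1.11, but so was its SE of 0.25, and its edgeR adjusted p of 0.0504 was the lowest among the mitotic members and just above the cutoff. KIF20B, needed for the last steps of cytokinesis, had 61.6, 42.6 and 37.4 CPM against 27.1, 8.54 and 10.998 CPM, a log2 fold change of −1.60 (SE 0.45).

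KIF4A, a chromosome-bound motor that also shortens central spindle microtubules together with PRC1, had 42.2, 28.5 and 25.2 CPM in the fresh libraries and 22.4, 4.44 and 5.10 CPM in the preconditioned libraries. Its preconditioned libraries spread more widely, relative to their mean, than those of KIF23, and at a log2 fold change of −1.58 with an SE of 0.64 its edgeR adjusted p was 0.154. KIF14, which localizes citron kinase in cytokinesis, had 30.0, 20.1 and 17.1 CPM against 15.6, 4.67 and 7.21 CPM, a log2 fold change of −1.29 (SE 0.46).

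Among the motors that assemble the spindle, KIF11 had the highest fresh CPM apart from KIF2A. This tetramer, also called Eg5, pushes the spindle poles apart. It had 87.2, 57.4 and 56.9 CPM in the fresh libraries and 40.4, 10.8 and 15.6 CPM in the preconditioned libraries, a 3.02-fold lower mean (log2 fold change −1.59, SE 0.49, edgeR adjusted p = 0.0902). KIF15, which can take over part of the work of KIF11, had 22.1, 17.3 and 16.4 CPM against 12.3, 5.02 and 3.75 CPM, with a log2 fold change of −1.40 (SE 0.44). The groups were separate for both genes.

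KIF2C, a depolymerase that corrects wrong attachments at centromeres, had 45.1, 31.0 and 27.2 CPM in the fresh libraries and 19.2, 8.22 and 8.66 CPM in the preconditioned libraries, a log2 fold change of −1.52 (SE 0.38, edgeR adjusted p = 0.0588). Both kinesin-8 motors had lower preconditioned means. KIF18B, which acts on astral microtubules, had 15.2, 14.9 and 12.7 CPM against 10.3, 1.57 and 3.49 CPM (log2 fold change −1.47, SE 0.62). KIF18A, which dampens the swings of aligned chromosomes, had 16.8, 13.4 and 14.7 CPM against 10.96, 5.82 and 8.07 CPM (log2 fold change −0.86, SE 0.26). No test of the difference between these 2 genes was made.

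KIF22, a motor on chromosome arms, was the only member of the 11 whose groups overlapped, with 9.94, 5.32 and 11.3 CPM in the fresh libraries and 5.36, 2.30 and 4.08 CPM in the preconditioned libraries (log2 fold change −1.18, SE 0.40). This value is uncertain, since 2 other rows of the table are described as KIF22 and reads of near-identical copies may have been divided among them. One of these, LOC127488989, is the row that the RefSeq annotation of mOryCun1.1 names KIF22, and it was singled out after its values were seen. It had 34.4, 29.1 and 21.4 CPM in the fresh libraries and 19.7, 8.15 and 6.59 CPM in the preconditioned libraries, and its groups did not overlap. The row with the symbol held 15.4% to 37.3% of the summed CPM of the 3 rows. With the 3 rows added before the fit, the log2 fold change was −1.27 (SE 0.36, edgeR adjusted p = 0.0736).

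KIF2A, placed in the mitotic class by its number, departed from the other members. It is a depolymerase of the same family as KIF2C that works at spindle poles and also in cells outside mitosis. Its levels were 109, 95.2 and 99.7 CPM in the fresh libraries and 97.8, 128 and 124 CPM in the preconditioned libraries, so that the groups overlapped (log2 fold change 0.20, SE 0.13, edgeR adjusted p = 0.336). Without KIF2A, the 11 members that the class rule spells out had a median log2 fold change of −1.47.

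**Figure D2:**
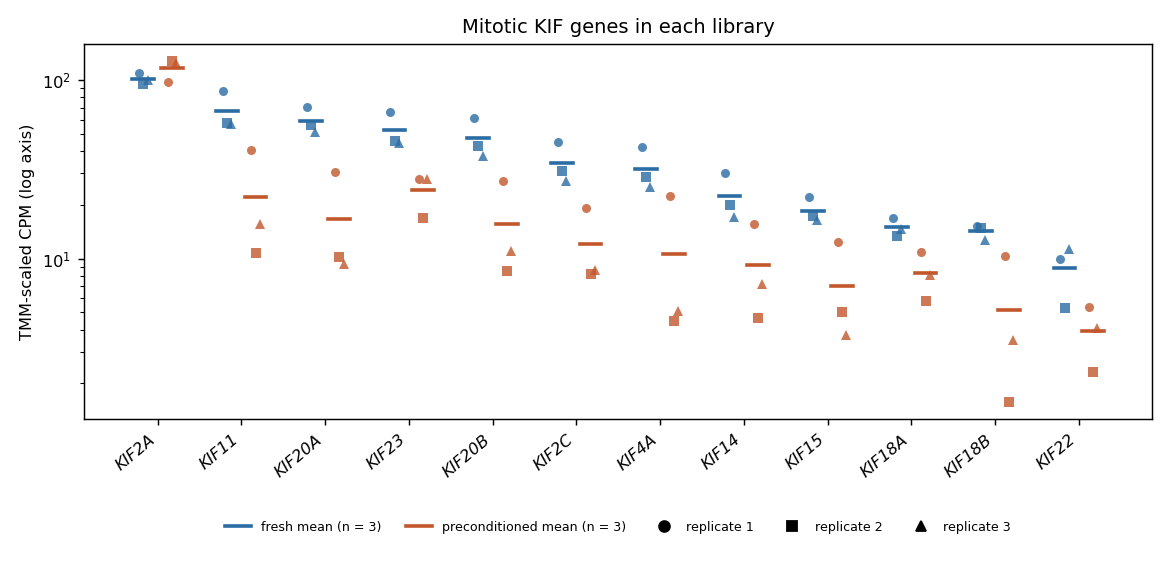
CPM (log axis) of the 12 mitotic KIF genes in each of the 6 libraries, ordered by fresh mean. Markers show the replicate and lines the group mean. Preconditioned replicate 1 (orange circles) is the highest preconditioned library for every member except KIF2A, and KIF2A alone has a higher preconditioned mean.

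The 3 preconditioned libraries were not alike for the 11 mitotic members other than KIF2A. Relative to the fresh mean, preconditioned replicate 1 had a median log2 ratio of −0.73 over the 11 members, with a range of −0.96 to −0.45. Preconditioned replicates 2 and 3 had medians of −2.26 and −2.03, with ranges of −3.19 to −1.37 and −2.66 to −0.89. Replicate 1 was the highest of the preconditioned libraries for 11 of the 11 members, and replicate 2 the lowest for 9 and replicate 3 for 2, while KIF23 was nearly as high in replicate 3 as in replicate 1. KIF2A departed from this order, with its lowest preconditioned level in replicate 1. In the fresh group, replicate 1 was the highest for 10 of the 11. Because preconditioned replicate 1 was singled out on these same values, leaving it out enlarges their differences by construction. When preconditioned replicate 1 was left out, 11 of the 12 mitotic members were called lower by edgeR (all except KIF2A, which then had a positive log2 fold change with an unadjusted p under 0.05), against 6.01% of all tested genes, and the median over the 12 was −2.06. The log2 fold changes in that fit were −2.75 for KIF4A, −2.60 for KIF20A, −2.28 for KIF20B, −1.92 for KIF14 and −1.23 for KIF23 among the motors of the central spindle and cytokinesis. Among those of the spindle they were −2.51 for KIF18B, −2.36 for KIF11, −2.09 for KIF15, −2.04 for KIF2C, −1.48 for KIF22 and −1.12 for KIF18A. The edgeR adjusted p of these 11 ran from 0.00223 (KIF20A) to 0.0474 (KIF22). When any other single library was left out, 0 were called, where 0.0584% to 0.195% of all tested genes were called lower, and 6 to 9 of the 12 were lower with an unadjusted p under 0.05, against 9.91% to 11.7% of all tested genes. The smallest differences over all 6 omissions were −1.21 for KIF4A, −1.54 for KIF20A, −1.31 for KIF20B, −0.97 for KIF14 and −0.90 for KIF23. For the motors of the spindle they were −1.04 for KIF18B, −1.26 for KIF11, −1.09 for KIF15, −1.28 for KIF2C, −0.91 for KIF22 and −0.65 for KIF18A.

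The share of mitotic members within all KIF counts does not depend on scaling between libraries. The 11 members other than KIF2A held 26.1%, 21.3% and 19.2% of KIF counts in the fresh libraries and 13.3%, 4.77% and 6.55% in the preconditioned libraries. The highest preconditioned share, 13.3% (exact binomial 95% confidence interval 13.1% to 13.6%), lay below the lowest fresh share, 19.2% (18.9% to 19.5%). These intervals cover counting error only. Summed over the 11 members, the fresh libraries had 371 ± 83.6 CPM and the preconditioned ones 135 ± 76.6 CPM (SD, n = 3 each). The 22 other members summed to 1188 ± 52.4 and 1383 ± 52.2 CPM (SD, n = 3 each).

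**Figure D3:**
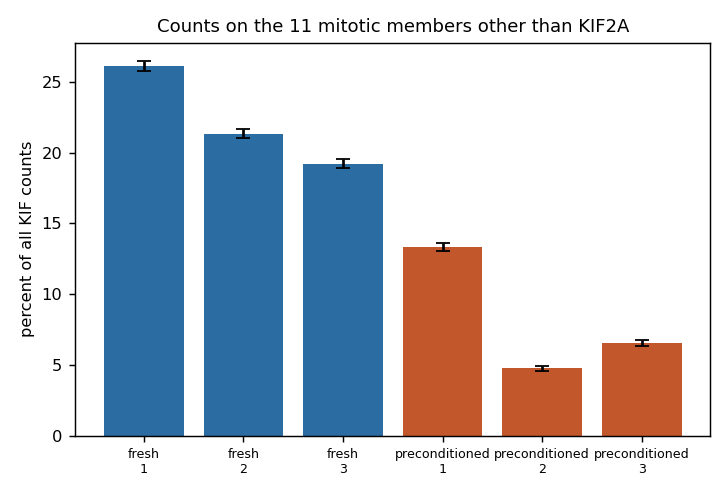
Percent of all KIF counts on the 11 mitotic members other than KIF2A, for each library, with exact binomial 95% confidence intervals that cover counting error only. The fresh libraries lie between 19.2% and 26.1%, and the preconditioned libraries at 13.3%, 4.77% and 6.55%.

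Levels were set side by side per transcript length with the FPKM values of the authors. In the fresh group KIF5B was the highest at 83.0 FPKM, followed by KIF2A at 34.3 FPKM, KIF20A at 20.3 FPKM, KIF3C at 18.6 FPKM and KIF1B at 17.5 FPKM. Of the 10 highest members, 4 were among the 11 mitotic ones that were lower in the preconditioned group (KIF20A, KIF23, KIF2C and KIF11). In the preconditioned group KIF5B and KIF2A still ranked first and second at 86.6 and 35.0 FPKM, whereas KIF20A ranked 10 at 5.15 FPKM and KIF23 ranked 9 at 6.27 FPKM. KIF2C and KIF11 then ranked 13 and 14.

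**Figure D4:**
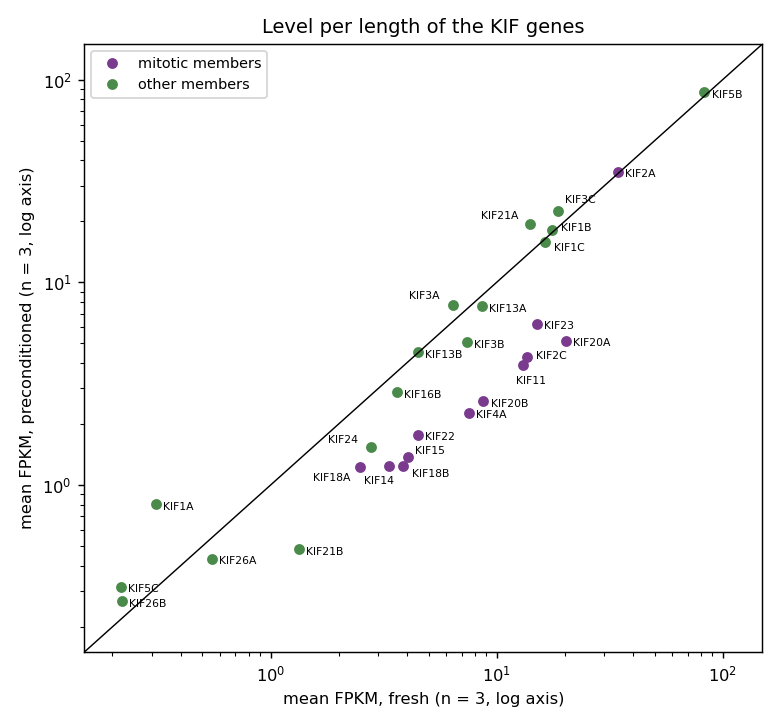
Mean FPKM of the 28 tested KIF genes in the fresh (x) and the preconditioned group (y), both on log axes, with the line of equal level. The 11 mitotic members lie below the line, KIF2A lies near it (34.3 and 35.0 FPKM), and KIF5B is the highest in both groups (83.0 and 86.6 FPKM).

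KIF21B was the only called member, and it belongs to the others. It is a kinesin-4 motor that carries cargo and limits microtubule growth, mostly studied in neurons and lymphocytes. It fell from 10.1, 10.999 and 9.27 CPM in the fresh libraries to 5.69, 2.91 and 3.72 CPM in the preconditioned libraries, with no overlap (log2 fold change −1.30, SE 0.29, edgeR adjusted p = 0.0487). The call was near the cutoff, and adjusted p was at most 0.165 over 14 alternative settings. When any 1 library other than preconditioned replicate 1 was left out, the adjusted p was above 0.05. Its close relative KIF21A had 81.0, 84.6 and 88.9 CPM in the fresh libraries and 141, 150 and 104 CPM in the preconditioned libraries, also without overlap but higher (log2 fold change 0.64, SE 0.15, edgeR adjusted p = 0.0543). KIF24, a depolymerase at centrioles that holds back cilia, had 15.5, 12.9 and 14.8 CPM against 12.2, 8.09 and 6.39 CPM (log2 fold change −0.69, SE 0.26, edgeR adjusted p = 0.127).

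KIF5B, the broadly expressed heavy chain of conventional kinesin, held 35.6% to 41.2% of the counts of the other class in each library. It had 479, 412 and 469 CPM in the fresh libraries and 555, 556 and 485 CPM in the preconditioned libraries. These values did not overlap, but the log2 fold change was only 0.23 (SE 0.12, edgeR adjusted p = 0.231). Its neuronal relative KIF5C was at 0.754 to 2.87 CPM over the 6 libraries, and KIF5A had at most 12 counts in a library.

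The kinesin-2 subunits did not share a direction. KIF3A, the subunit common to the ciliary and other kinesin-2 motors, had 40.2, 29.1 and 29.5 CPM in the fresh libraries and 45.3, 42.9 and 46.8 CPM in the preconditioned libraries (log2 fold change 0.45, SE 0.15, edgeR adjusted p = 0.107). Its main partner KIF3B had 55.8, 67.0 and 70.6 CPM against 55.2, 49.1 and 44.8 CPM (log2 fold change −0.37, SE 0.14, edgeR adjusted p = 0.118). The groups were separate for both, though by less than 1 CPM for KIF3B. KIF3C, the alternative partner of KIF3A, had 108, 103 and 131 CPM against 130, 181 and 156 CPM, and its groups overlapped (log2 fold change 0.45, SE 0.16).

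Among the kinesin-3 motors outside the mitotic class, 5 had small differences with overlapping groups and KIF1A had a large and variable one. KIF1B, a carrier of mitochondria and vesicles, had 164, 164 and 140 CPM in the fresh libraries and 146, 188 and 215 CPM in the preconditioned libraries (log2 fold change 0.23, SE 0.16). KIF1C, KIF13A, KIF13B and KIF16B, carriers of vesicles and endosomes, had log2 fold changes from −0.17 to 0.18, with overlapping groups. KIF1A, a carrier of synaptic vesicle precursors, was scarce and had the highest log2 fold change of the family. It was at 1.01, 1.41 and 4.32 CPM in the fresh libraries and 3.16, 8.51 and 8.07 CPM in the preconditioned libraries (log2 fold change 1.55, SE 0.63, edgeR adjusted p = 0.152). Fresh replicate 3 lay above preconditioned replicate 1, so the groups overlapped. Without fresh replicate 3 the log2 fold change was 2.43 (edgeR adjusted p = 0.101), and over the 6 fits that left out 1 library it was 1.20 to 2.43. KIF1A was called higher by DESeq2 (adjusted p = 0.0425) and in no edgeR or limma setting. KIF26A and KIF26B were between 1.16 and 4.68 CPM, with overlapping groups. The remaining 6 members (KIF5A, KIF6, KIF12, KIF17, KIF25 and KIF27) had at most 13 counts in any library and were not tested.

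**Figure D5:**
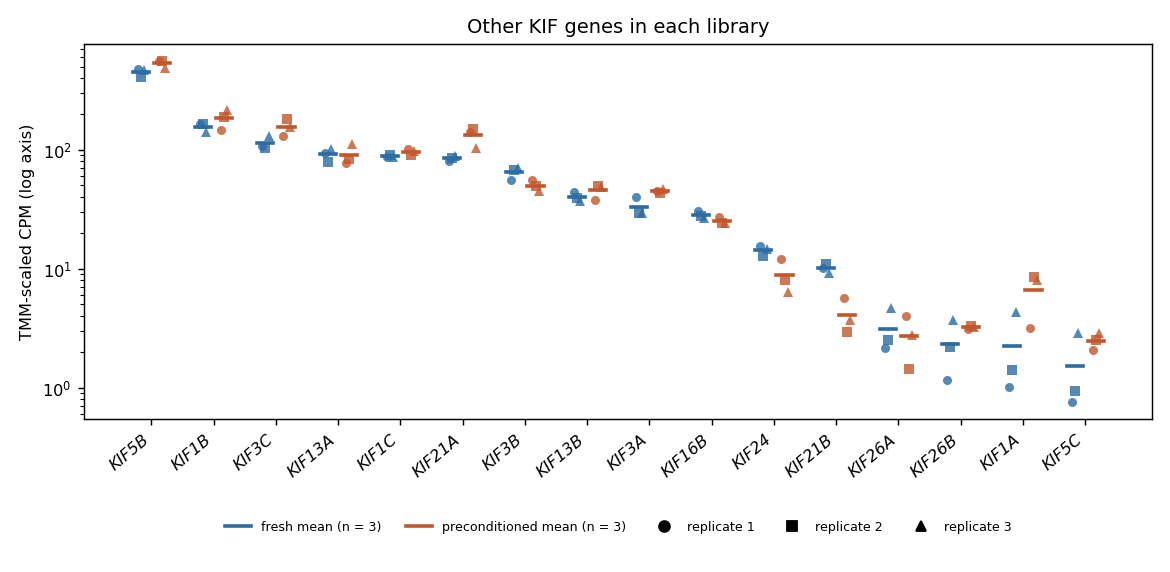
CPM (log axis) of the 16 tested KIF genes outside the mitotic class in each of the 6 libraries, ordered by fresh mean. Markers show the replicate and lines the group mean. KIF5B is the highest at 412 to 556 CPM, and KIF21B lies at 9.27 to 10.999 CPM in the fresh and 2.91 to 5.69 CPM in the preconditioned libraries.

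Genes that work with the mitotic motors were also compared. Of 18 such partners, 2 fell (CIT and KNSTRN), and all 18 had a negative log2 fold change, with a median of −1.16. The share called lower was 1.20% over all tested genes. An unadjusted p under 0.05 was reached by 14 of the 18, against 15.1% of all tested genes in this direction. CIT, the citron kinase that KIF14 localizes, fell from 16.1 ± 3.33 to 4.29 ± 1.64 CPM (SD, n = 3 each, log2 fold change −1.90, edgeR adjusted p = 0.0364). KNSTRN, a spindle and kinetochore protein, fell from 13.5 ± 1.84 to 4.35 ± 1.25 CPM (SD, n = 3 each, log2 fold change −1.64, edgeR adjusted p = 0.0322). CENPE, the kinesin that carries chromosomes to the spindle equator and lacks the KIF prefix, had 33.4 ± 7.89 and 9.97 ± 5.51 CPM (SD, n = 3 each, log2 fold change −1.75, edgeR adjusted p = 0.0532). ECT2, BUB1 and CDCA8 had log2 fold changes of −1.72, −1.64 and −1.62. Without preconditioned replicate 1, 16 of the 18 were called lower, against 6.01% of all tested genes, and with DESeq2 9 were, against 4.17%. When any other single library was left out, or with the replicate number as a block, 0 of the 18 were called by edgeR, and CIT and KNSTRN lost their calls, where 0.0584% to 0.195% of all tested genes were called lower. In these fits 8 to 17 of the 18 were lower with an unadjusted p under 0.05, against 9.91% to 12.9% of all tested genes.

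The proliferation genes MKI67, TOP2A, CCNB1, CCNB2, CCNA2, CDK1, PCNA and MCM2 were lower in mean beside the mitotic motors, with log2 fold changes from −1.90 (MKI67) to −0.72 (PCNA) and a median of −1.44. None of the 8 was called by edgeR, against 1.20% of all tested genes called lower. An unadjusted p under 0.05 was reached by 6, against 15.1% of all tested genes in this direction. DESeq2 called 6 lower, against 4.17% of all genes. Without preconditioned replicate 1, edgeR called all 8 lower, against 6.01% of all tested genes, and their median was −2.13. With any other single library omitted, 0 were called and 5 or 6 had an unadjusted p under 0.05, against the same low shares of all tested genes as above (0.0584% to 0.195% and 9.91% to 11.7%). Their summed level was 578 to 828 CPM in the fresh libraries and 179 to 503 CPM in the preconditioned libraries.

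The partners of the transport motors had a median log2 fold change of 0.03 over 17 tested genes. None was called by edgeR, 2 had an unadjusted p under 0.05 in each direction, against 15.1% of all tested genes lower and 15.5% higher. MAPK8IP2 was called higher by DESeq2, against 3.62% of all genes, and by edgeR without preconditioned replicate 1, against 3.98%. This scaffold, which links kinesin-1 to its cargo, was found with 4 to 6 counts per fresh library and 17 to 22 counts per preconditioned library (log2 fold change 2.07, edgeR adjusted p = 0.0512). KIFAP3, which joins KIF3A and KIF3B to cargo, had 55.6, 51.3 and 41.0 CPM in the fresh libraries and 60.3, 75.6 and 79.9 CPM in the preconditioned libraries (log2 fold change 0.54, edgeR adjusted p = 0.0797). For TRAK2, an adaptor of mitochondria, it was −0.56 (edgeR adjusted p = 0.0618). Of 9 subunits and regulators of dynein, the motor that runs the opposite way, none was called by edgeR or by DESeq2. In edgeR, 2 lower and 1 higher gene had an unadjusted p under 0.05, against 15.1% and 15.5% of all tested genes. The heavy chain DYNC1H1 had 520 ± 72.2 and 338 ± 24.1 CPM (SD, n = 3 each), with an adjusted p of 0.0486 (edgeR) and a log2 fold change of −0.62, under the fold cutoff.

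Of the markers of other cell types, 1 was called. The summed level of 10 stromal markers was 529 to 1144 CPM in the fresh libraries and 1299 to 2323 CPM in the preconditioned libraries, and 1 of the 10, COL1A1, was called higher, against 1.08% of all tested genes. The other 9 stromal markers had overlapping groups, 4 of them with a negative log2 fold change, and without COL1A1 the sums overlapped at 472 to 1036 and 779 to 1630 CPM. Of 4 immune markers none was called, and their sum was 95.8 to 131 and 123 to 307 CPM, nearly all of it CD68, with PTPRC at 0.197 to 1.503 CPM. CD68, singled out after its values were seen, had 120.6 CPM in preconditioned replicate 1 and 299.6 and 287.9 CPM in preconditioned replicates 2 and 3, against 93.4 to 129.4 CPM in the fresh libraries. Melanocyte markers summed to 4.36 to 5.69 and 2.59 to 3.79 CPM, endothelial markers to 2.67 to 3.13 and 1.07 to 13.01 CPM, nerve and glia markers to 4.78 to 18.3 and 11.4 to 23.02 CPM, and markers of ciliated cells to 0.116 to 0.366 and 0.456 to 0.757 CPM. Of the 18 genes of these 4 lists in the table, 7 had enough counts to be tested (1 melanocyte, 1 endothelial, 4 nerve and glia, 1 ciliated), and none was called. MITF made up nearly all of the melanocyte sum, with MLANA and TYR at 0 in 4 of the 6 libraries each, and PECAM1 nearly all of the endothelial sum, with VWF and KDR at most 0.219 CPM. Of 8 epithelial markers none was called, and TP63 had 237 ± 10.1 and 139 ± 38.9 CPM (SD, n = 3 each, log2 fold change −0.77, edgeR adjusted p = 0.0588). The epithelial list had 4 negative and 4 positive log2 fold changes, and in 1 of the 8, TP63, all preconditioned libraries lay below all fresh ones, against 18.8% of all tested genes. EPCAM and ITGB4 had higher levels without overlap, against 17.9% of all tested genes (log2 fold changes 0.50 and 0.63, edgeR adjusted p = 0.0601 and 0.0715). PAX6 had 0.81 with overlapping groups, and the lowest value was −1.21 for KRT3. In preconditioned replicates 1, 2 and 3, TP63 had 183, 122 and 112 CPM and PAX6 had 203, 376 and 459 CPM. The fresh libraries had 226 to 246 CPM of TP63 and 174 to 218 CPM of PAX6. Both genes were singled out after their values were seen, and KRT5 in preconditioned replicate 1 (11740 CPM) lay above its fresh libraries. The part of these markers in the levels of the kinesins was not tested.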

How the data were processed

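RNA-seq of rabbit LSCs was analysed in 3 fresh and 3 preconditioned libraries. The authors aligned reads with hisat2 and deposited raw counts from htseq-count, and they also deposited FPKM values of the same genes. The genome build, annotation and strand setting are not given in the sources used here, so no coordinates are printed. Whether reads of overlapping genes were assigned by strand is therefore unknown. No sequences of these genes were analysed here.

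The software was R 4.3.3 and edgeR 4.0.16. After filterByExpr, 15029 of 22190 genes were scaled by TMM and tested by the quasi-likelihood test with robust estimation and condition as the only factor. The Benjamini-Hochberg adjustment was made over all tested genes. Standard errors were derived from the F statistic. Alternatives were DESeq2 1.42.0, which is the tool of the authors, other scalings and filters, a block for the replicate number, omission of each library in turn, and limma 3.58.1 on log2(FPKM + 1) and log2(FPKM + 0.1). The edgeR and DESeq2 fits were tested on simulated counts. At a depth of 31952352 to 34327534 counts, the spread between libraries limits precision more than depth does, except for scarce members. Pairs of replicates had a chi-square of counts per degree of freedom of 48.1 to 147, and each library was taken as 1 sample.

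The members and lists were chosen with earlier results of these data known. All 34 members may be named. CPM per library is given for called members, for members without overlap and a log2 fold change of at least 0.58 in size, for the 3 highest FPKM values of each class, and for the spindle motors. CPM per library of KIF1A, KIF3A, KIF3B and the KIF22 copy was added after the values were seen. Partner lists are described by up to 6 genes with the largest changes. Of 34 gene identifiers, 33 were found in the RefSeq table of mOryCun1.1.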

Additional observations from a re-analysis of the deposited data

How the results depend on the processing

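Over 14 alternative fits the log2 fold changes of the 11 mitotic members other than KIF2A stayed negative, and no called direction reversed, while the number of calls depended on the setting. Against 1 KIF gene called, DESeq2 called 12 (1 of them, KIF1A, higher), library size alone 3, a filter of at least 1 CPM in 3 libraries 2, no filter 2, limma on log2(FPKM + 1) 4 and on log2(FPKM + 0.1) 5. Leaving out 1 library gave 0 to 12, with the highest number without preconditioned replicate 1. Over all genes the count was 344, and it was 1190 with DESeq2, 565 with library size alone, 368 with the filter at 1 CPM, 411 with no filter, 283 with limma on log2(FPKM + 1), 590 with limma on log2(FPKM + 0.1), 763 with no fold cutoff, and 14 to 1546 when 1 library was left out. With the replicate number as a block, 0 KIF genes and 30 genes in all were called. In that fit 11 mitotic members were lower with an unadjusted p under 0.05, against 12.9% of all tested genes. Deviations of libraries with the same number had correlations of −0.118 to −0.067. Whether such libraries share an animal or a day is not stated, and these values cannot decide it. The share of lower genes among calls was 52.6%. It was 72.8% and 76.1% with limma on log2(FPKM + 1) and log2(FPKM + 0.1), 38.9% to 68.8% when 1 library was left out (lowest without preconditioned replicate 3, with 28 lower and 44 higher), and 74.9% with library size alone, where the median of all genes moved to −0.16. The median of the other KIF genes with library size alone was 0.0345, and 0.0245 and 0.0254 with limma on log2(FPKM + 1) and log2(FPKM + 0.1). It was 0.0553 with DESeq2 and 0.0491 with no filter, where scarce members enter. Those of the mitotic members stayed between −2.06 and −1.12. KIF21B lost its call with the block (log2 fold change −1.35, edgeR adjusted p = 0.1045), without each library except preconditioned replicate 1 (−1.37 to −1.10, against −1.30 in the full fit), and on log2(FPKM + 1), where its difference was −0.66. Members with at most 13 counts are limited by depth.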

Other observations

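Ratios within a library do not depend on scaling between libraries, and 4 were computed after the values had been seen. KIF3B over KIF3A, both subunits of kinesin-2, was 1.39, 2.30 and 2.39 in the fresh libraries and 1.22, 1.14 and 0.958 in the preconditioned libraries (CPM over CPM), so that the groups did not overlap. KIF2C over KIF2A, both kinesin-13 depolymerases, was 0.413, 0.325 and 0.273 in the fresh libraries and 0.196, 0.0642 and 0.0697 in the preconditioned libraries.

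KIF23 over KIF20A, both motors of the central spindle, was 0.942, 0.816 and 0.871 in the fresh libraries and 0.919, 1.66 and 2.96 in the preconditioned libraries. Preconditioned replicate 1 lay within the fresh range, and replicate 3 had 27.8 CPM of KIF23 beside 9.38 CPM of KIF20A. KIF23 over RACGAP1, the subunits of centralspindlin, was 0.812, 0.738 and 0.809 in the fresh libraries and 0.547, 0.620 and 0.922 in the preconditioned libraries, and the groups overlapped. These ratios are given as values, with no test.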
